A study of Mus musculus with 4 samples.

Results

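Calcineurin is a phosphatase that is switched on by calcium, and the NFAT factors are the transcription factors it acts on. The 9 genes described here are Ppp3ca, Ppp3cb and Ppp3cc, which encode the catalytic subunits of calcineurin, the factors Nfatc1, Nfatc2, Nfatc3 and Nfat5, and the calcineurin inhibitors Rcan1 and Cabin1. They were taken by name from the 23990 gene symbols of the tables, and all 9 passed the filter on low values. Effector CD4 cells (CD44+CD4) of wild type C57BL/6 mice immunized with a MOG peptide were sorted at the onset of EAE, a model of MS in which CD4 cells enter the CNS. One group came from the spinal cord (CNS, 2 libraries) and the other from pooled draining lymph nodes (dLN, 2 libraries). Both groups came from immunized mice, so neither is an unimmunized control. The ages of the mice and the number of mice behind a library were not given in the sources used here. According to the methods, PMA and ionomycin were given to these cells for 4 h after the sort. The labels describe freshly sorted cells and do not mention PMA or ionomycin.

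In T cells, engagement of the antigen receptor opens calcium channels, calcium activates calcineurin, and calcineurin removes phosphates from NFATc1, NFATc2 and NFATc3, which then enter the nucleus and drive cytokine genes, often together with AP-1. Nfat5 encodes a relative that lacks the calcineurin binding region and is best known for the response to high salt. Ionomycin raises calcium directly and is a standard trigger of calcineurin.

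Values are FPKM, a fragment count divided by transcript length and by the depth of the library, summed over the transcripts of a gene. They are scaled for length, so levels of different genes can be set side by side. Log2 ratios are CNS over dLN on the log2(FPKM + 1) scale, with the standard error (SE) and the Benjamini-Hochberg adjusted p of limma over the 10634 genes tested. Of the low FPKM values, 90.2% to 93.6% were multiples of what 1 fragment is worth (within 0.05 of a fragment). Chance gives 10% at a fixed depth, but the depth was chosen to make this share largest. The depth so chosen was 18.48 M to 21.9 M fragments per library. At that depth the 9 genes held from about 116 to about 9493 fragments in a library. Across genes, which are not independent, the correlation between replicate libraries (Pearson, log2 values) was 0.976 for CNS and 0.986 for dLN. The tissues also differed in Y-linked Ddx3y (12.7 and 11.2 FPKM in CNS, listed at 0 in dLN). Xist was at 0 and 0.0026 FPKM in CNS against 26.6 and 22.3 FPKM in dLN. By these transcripts the CNS cells came from male mice and the dLN cells from female mice. Tissue, sex, the mice themselves and the table therefore cannot be told apart. Of 8 T cell markers, 6 were higher and 2 were lower in CNS, and their summed level was 2749 and 2775 FPKM in CNS against 1062 and 979 FPKM in dLN. Cd4 was at 502 and 531 FPKM in CNS and 82.0 and 66.7 FPKM in dLN. Of 12 myeloid markers 11 were in the tables and 9 were tested, with 4 higher and none lower in CNS, and their sum was 20.1 and 226 FPKM in CNS and 4.69 and 4.05 FPKM in dLN. Most of it lay in CNS replicate 2, where Lyz2 was at 92.1 FPKM and Tyrobp at 55.9 FPKM. The 6 B cell markers summed to 1.34 and 1.97 FPKM in CNS against 0.564 and 0.386 FPKM in dLN. The 1 that was tested, Cd79b, was higher in CNS (adjusted p = 0.00462), and Pax5 was listed at 0 in every library. The 7 CD8 and NK markers summed to 6.42 and 10.8 FPKM in CNS against 3.5 and 3.4 FPKM in dLN. Of the 2 tested, Klrb1c was higher in CNS (2.53 and 3.22 against 0.0442 and 0 FPKM, adjusted p = 0.000432) and Cd8b1 did not pass, and Klra1 was listed at 0 in every library. Of 12 neural markers 4 were tested. Tubb3 (2.1 and 4.4 against 0.105 and 0.0294 FPKM, adjusted p = 0.00295) and Gfap (0.655 and 2.51 against 0 and 0 FPKM, adjusted p = 0.0312) were higher in CNS, Mbp was lower (48.6 and 44.5 against 55.5 and 57.7 FPKM, adjusted p = 0.0361) and Snap25 did not pass. Without Mbp the other 11 neural markers summed to 3.65 and 9.94 FPKM in CNS against 0.244 and 0.353 FPKM in dLN, where 8 of the 12 were listed at 0 in each library. The part of other cells in the results was not tested. Without CNS replicate 2 each of the 9 genes kept its direction. This run does not remove other cells, since CNS replicate 1 also had a higher myeloid sum than dLN (20.1 against 4.69 and 4.05 FPKM).

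All 9 genes differed between the tissues, with 5 higher and 4 lower in CNS. The 3 catalytic subunits, Nfatc2 and Nfatc3 were the higher ones, and Nfatc1, Nfat5, Rcan1 and Cabin1 were the lower ones. CNS and dLN libraries did not overlap for any of the 9. These counts stand against a background in which 74.9% of all genes tested had an adjusted p under 0.05 (37.8% higher and 37.2% lower in CNS) and 89.4% did not overlap between the tissues, so having a difference sets none of these genes apart. The median log2 ratio was 1.04 over the 9 genes and 0.05 over all genes tested. Over all genes tested, the lower quartile was -0.74 and the upper quartile 0.86. The median of the 9 is the value of Ppp3cb, the smallest ratio of the 5 higher genes. As the 9 genes split in direction, it does not describe a common shift. In bulk RNA, fewer cells with a transcript and less RNA per cell cannot be told apart. With 2 libraries a tissue, the smallest two-sided p of an exact permutation test is 0.333, so single values rest on the fit across all genes.

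**Figure D1:**
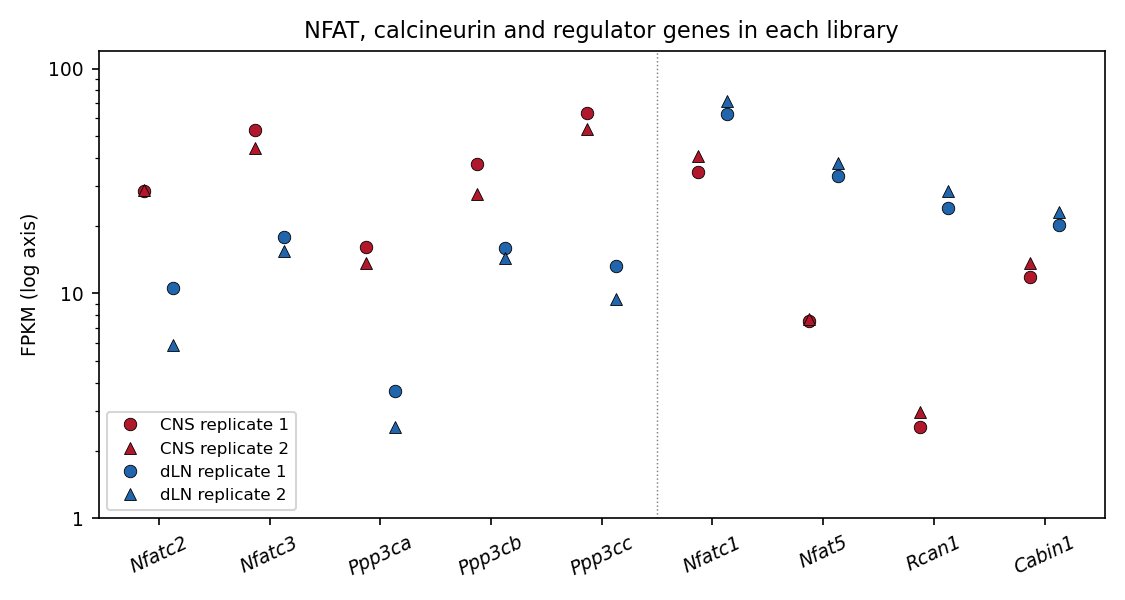
FPKM of each of the 9 genes in the 4 libraries (log axis), 1 point per library, with CNS and dLN in separate colours. For Ppp3ca, Ppp3cb, Ppp3cc, Nfatc2 and Nfatc3 both CNS points lie above both dLN points, and for Nfatc1, Nfat5, Rcan1 and Cabin1 both lie below.

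**Figure D2:**
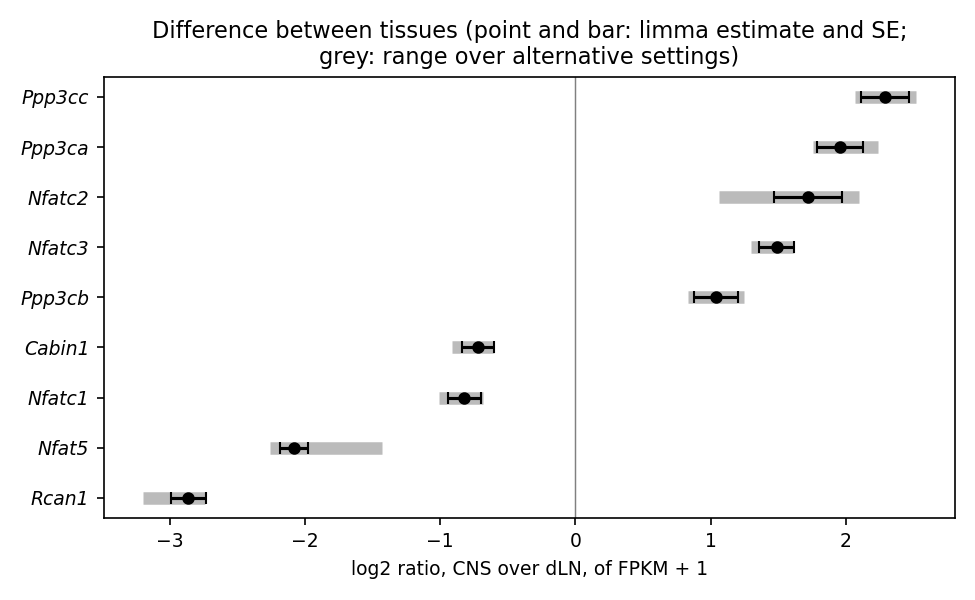
Log2 ratio of CNS over dLN on the log2(FPKM + 1) scale for each of the 9 genes, with bars of 1 SE and in grey the range over the alternative settings. The values run from -2.86 for Rcan1 to 2.29 for Ppp3cc.

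The catalytic subunits of calcineurin rose together in CNS. Ppp3cc encodes the gamma form and lies at chr14:70217898-70289449 (mm10). Its level was 63.4 and 54.1 FPKM in CNS against 13.2 and 9.42 FPKM in dLN. The mean was 58.8 ± 6.59 in CNS and 11.3 ± 2.69 in dLN (SD, n = 2), a ratio of 5.19, and the log2 ratio was 2.29 (SE 0.18, adjusted p = 0.000363). Of all genes tested, 9.37% had a larger log2 ratio in size. Ppp3ca, the alpha form at chr3:136670066-136937727, was at 16.1 and 13.7 FPKM in CNS and 3.68 and 2.56 FPKM in dLN. Both CNS libraries were above both dLN libraries, with a log2 ratio of 1.96 (SE 0.17, adjusted p = 0.00048). Ppp3cb, the beta form at chr14:20499314-20546573, was at 37.5 and 27.7 FPKM in CNS and 16.0 and 14.4 FPKM in dLN. Its log2 ratio of 1.04 (SE 0.16, adjusted p = 0.00348) was the smallest of the 3, and 38.6% of all genes tested had a larger one in size.

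The summed FPKM of the catalytic subunits was 117 and 95.5 in CNS and 32.9 and 26.4 in dLN. The mean was 3.59 times as high in CNS (106 ± 15.2 against 29.6 ± 4.58 FPKM, SD, n = 2). The make-up of the sum differed as well. Ppp3cc supplied 54.2% and 56.7% of it in CNS and 40.3% and 35.7% in dLN, whereas Ppp3cb supplied 32.0% and 29.0% in CNS and 48.5% and 54.6% in dLN. Ppp3cc was thus the leading catalytic transcript in both CNS libraries and Ppp3cb in both dLN libraries. The share of Ppp3ca was 13.8% and 14.3% in CNS and 11.2% and 9.7% in dLN. None of these shares overlapped between the tissues, each with the smallest exact permutation p of this design (0.333). Ppp3r1 encodes the regulatory subunit that each catalytic subunit pairs with. It was at 53.4 and 48.3 FPKM in CNS and 39.1 and 35.0 FPKM in dLN. Its log2 ratio was 0.45 (adjusted p = 0.0129), and the call was lost with the same FPKM sum per library (0.25, adjusted p = 0.0995), without CNS replicate 1 (0.37, adjusted p = 0.0648) and without dLN replicate 2 (0.37, adjusted p = 0.0765). Catalytic FPKM per FPKM of Ppp3r1 was 2.19 and 1.98 in CNS and 0.84 and 0.753 in dLN.

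The 3 calcineurin-controlled factors moved in opposite directions. Nfatc3 at chr8:106059603-106130537 was at 53.4 and 44.4 FPKM in CNS and 17.9 and 15.5 FPKM in dLN. The mean was 48.9 ± 6.35 in CNS and 16.7 ± 1.71 in dLN (SD, n = 2), a ratio of 2.92, and the log2 ratio was 1.49 (SE 0.13, adjusted p = 0.000503). Nfatc2 at chr2:168476410-168601657, a major NFAT of resting T cells, was at 28.5 and 28.7 FPKM in CNS and 10.6 and 5.91 FPKM in dLN. The CNS libraries were close to each other and the dLN libraries differed more (28.6 ± 0.144 against 8.26 ± 3.32 FPKM, SD, n = 2). The log2 ratio was 1.72 (SE 0.25, adjusted p = 0.00273), and it was 1.06 when the transcript with the highest level stood for the gene. Nfatc1, the NFAT whose own transcription is induced on activation, was at 34.6 and 41.0 FPKM in CNS and 63.0 and 71.5 FPKM in dLN. Its mean was 1.78 times as high in dLN (67.3 ± 6.01 against 37.8 ± 4.53 FPKM, SD, n = 2), with a log2 ratio of -0.82 (SE 0.12, adjusted p = 0.00288), and 49.0% of all genes tested had a larger ratio in size. Nfatc4, the remaining calcineurin-controlled member, was listed at 0.0754 FPKM or less in every library and was not tested.

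Their summed FPKM differed less than the single genes did, at 116 and 114 in CNS and 91.6 and 93.0 in dLN (ratio 1.25). Within this sum Nfatc1 made up 29.7% and 35.9% in CNS and 68.8% and 77.0% in dLN. Nfatc3 made up 45.8% and 38.9% in CNS and 19.6% and 16.7% in dLN, and Nfatc2 24.5% and 25.2% against 11.6% and 6.36%. Nfatc3 was therefore the leading factor of the 3 in both CNS libraries and Nfatc1 in both dLN libraries. The difference in the Nfatc1 share was -40.1 percentage points and kept its sign in every alternative run, from -44.1 to -36.0. With the highest transcript of each gene in place of the sum, the difference for Nfatc2 shrank from 15.8 to 5.53 points and that for Nfatc3 grew from 24.2 to 34.3 points.

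**Figure D3:**
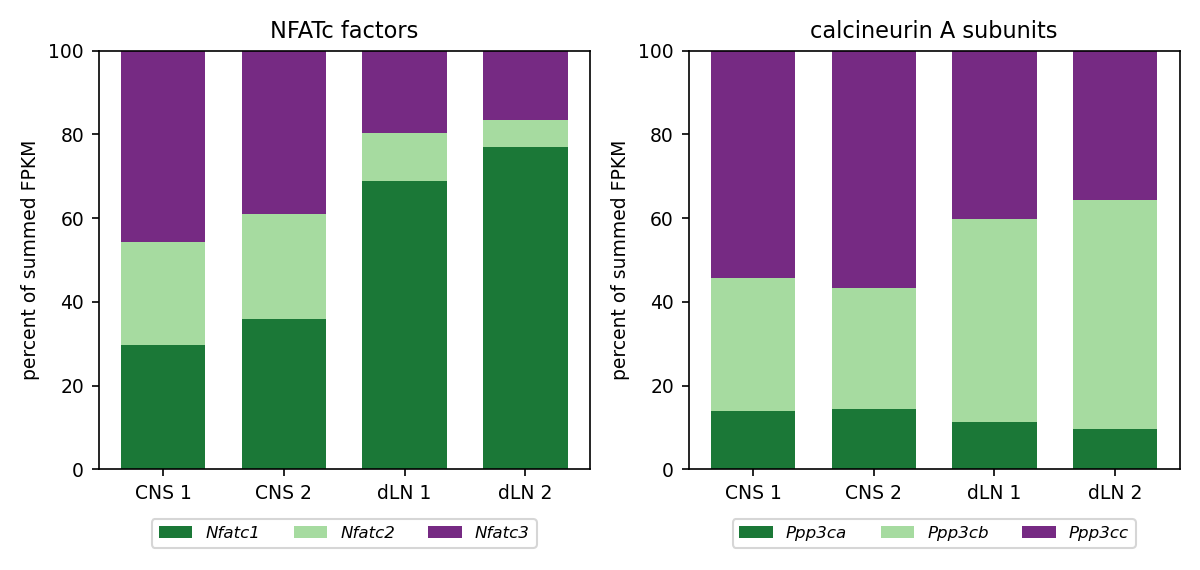
Share (percent) of each gene in the summed FPKM of Nfatc1, Nfatc2 and Nfatc3 and of Ppp3ca, Ppp3cb and Ppp3cc, 1 stacked bar per library. Nfatc1 takes 29.7% and 35.9% in CNS and 68.8% and 77.0% in dLN, and Ppp3cc takes more than Ppp3cb in both CNS libraries only.

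The transcripts of Nfatc1 differed by where they start. The gene lies on chromosome 18, and the tables hold 6 transcripts of it with 2 start sites that are 4898 bases apart and 2 ends that are 41230 bases apart. As background, the upstream promoter is the inducible one, and together with the near end it gives the short form known as NFATc1/alphaA. The 3 transcripts from the upstream start summed to 5.1 and 11 FPKM in CNS and 48.5 and 54.1 FPKM in dLN. The 3 transcripts from the downstream start went the other way, with 29.5 and 30.0 FPKM in CNS and 14.5 and 17.5 FPKM in dLN. The upstream start supplied 14.8% and 26.9% of Nfatc1 in CNS and 77.0% and 75.6% in dLN. In these estimated levels, the lower total of Nfatc1 in CNS combined a lower upstream sum with a higher downstream sum. The estimate divides fragments that the transcripts share, and only 140 exonic bases belonged to the downstream start alone. In the fit over 13565 transcripts, the 3 upstream transcripts were lower and the 3 downstream ones were higher in CNS.

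The short form with the upstream start and the near end (NM_001164109) was at 2.96 and 6.82 FPKM in CNS and 34.6 and 37.0 FPKM in dLN, a log2 ratio of -2.72 (SE 0.34, adjusted p = 0.00263). The downstream transcript with the highest level (NM_016791) was at 17.0 and 18.5 FPKM in CNS and 11 and 12.6 FPKM in dLN. Its log2 ratio was 0.55 (adjusted p = 0.0133), and the call was lost without CNS replicate 1 (0.61, adjusted p = 0.0555), CNS replicate 2 (0.49, adjusted p = 0.0799) or dLN replicate 1 (0.46, adjusted p = 0.0749). For another downstream transcript (NM_001164111, log2 ratio 1.05, adjusted p = 0.00635) it was lost without CNS replicate 1 (1.06, adjusted p = 0.059) or CNS replicate 2 (1.05, adjusted p = 0.0602). The near end supplied 57.6% and 61.8% in CNS and 72.2% and 69.4% in dLN, a smaller difference than that of the starts.

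Use of the upstream start was then compared as log2 of upstream over other starts, a measure chosen after the data were seen, over the 680 genes with several starts. For Nfatc1 it was -2.32 and -1.36 in CNS and 1.68 and 1.58 in dLN. The difference was -3.47 (SE 0.42, adjusted p = 0.016), where 16.0% of the 680 genes had an adjusted p under 0.05. It was lost as a call without dLN replicate 1 (-3.42, adjusted p = 0.0891) or dLN replicate 2 (-3.52, adjusted p = 0.112), with the size nearly the same. FPKM of single transcripts is an estimate that divides shared fragments. In the GENCODE models 432 exonic bases of Nfatc1 belonged only to the upstream start and 140 only to the downstream start.

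**Figure D4:**
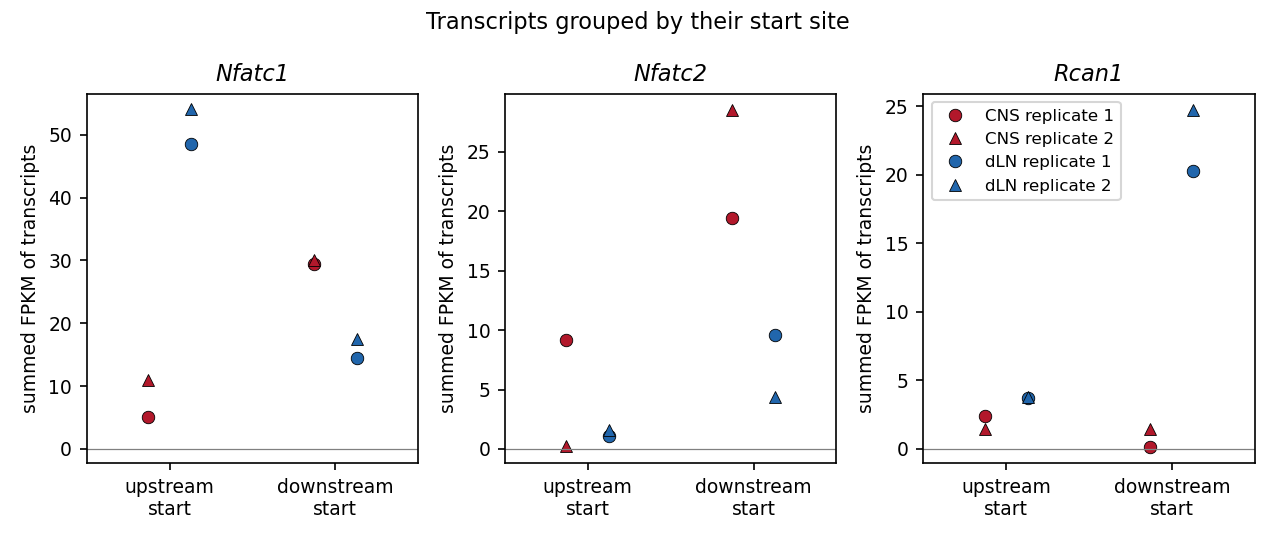
Summed FPKM of transcripts from the upstream and the downstream start of Nfatc1, Nfatc2 and Rcan1, 1 point per library. The upstream start of Nfatc1 is at 5.1 and 11 FPKM in CNS and 48.5 and 54.1 FPKM in dLN, and the downstream start of Rcan1 at 0.118 and 1.49 FPKM against 20.3 and 24.7 FPKM.

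Nfatc2 had 18 transcripts from 2 starts that are 11292 bases apart, and 7 of them were tested. The downstream start gave 19.4 and 28.5 FPKM in CNS and 9.56 and 4.35 FPKM in dLN, so these libraries did not overlap. The upstream start gave 9.14 and 0.208 FPKM in CNS and 1.05 and 1.56 FPKM in dLN. The CNS replicates thus disagreed about this start, and the dLN libraries lay between them. The difference in start use was -1.1 (SE 1.27, adjusted p = 0.579) and turned to 0.71 (adjusted p = 0.48) without CNS replicate 2. Of the 7 tested transcripts 4 were higher in CNS and 3 did not pass. The 2 with the highest level both start downstream. NM_010899 was at 8.37 and 11.4 FPKM in CNS and 3.18 and 0.94 FPKM in dLN, and NM_001136073 at 8.64 and 9.83 FPKM in CNS and 5.24 and 3.41 FPKM in dLN. The calls of NM_010899 and NM_001136073 were lost without either CNS library (adjusted p = 0.0866 to 0.124), and that of NM_001136073 also without dLN replicate 2 (adjusted p = 0.0528). Those of the other 2 (NM_001291176 and NM_001291178) were lost without either dLN library (adjusted p = 0.0904 to 0.114). Nfatc3 has 1 transcript in the tables.

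Nfat5, at chr8:107293470-107379517, was at 7.53 and 7.73 FPKM in CNS and 33.2 and 38.0 FPKM in dLN. The mean was 4.66 times as high in dLN (35.6 ± 3.38 against 7.63 ± 0.137 FPKM, SD, n = 2), and the log2 ratio was -2.08 (SE 0.10, adjusted p = 0.000118). All 3 transcripts of Nfat5 were lower in CNS. The shortest, with 4717 bases, was at 0.648 and 0.86 FPKM in CNS and 7.13 and 7.91 FPKM in dLN. The longest, with 13443 bases, was at 0.932 and 2.64 FPKM in CNS and 14.6 and 16.0 FPKM in dLN. The third, with 13381 bases, was at 5.95 and 4.23 FPKM in CNS and 11.5 and 14.0 FPKM in dLN. It had the smallest log2 ratio of the 3 (-1.18, adjusted p = 0.00579), and its call was lost without dLN replicate 2 (-1.05, adjusted p = 0.0577). In all, the 9 genes have 35 transcripts, of which 23 were tested, 11 were higher, 9 were lower and 3 did not pass, against 66.6% of all transcripts called (32.8% higher and 33.8% lower in CNS).

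Rcan1 encodes a protein that binds calcineurin and inhibits it, and it is itself a classical target of calcineurin and NFAT. It showed the largest difference of the 9 genes. It lies at chr16:92391951-92466169 on the minus strand and was at 2.55 and 2.97 FPKM in CNS and 24.1 and 28.5 FPKM in dLN. These values rest on about 116 and 133 fragments in CNS and 903 and 1271 fragments in dLN. The mean was 9.52 times as high in dLN (26.3 ± 3.14 against 2.76 ± 0.296 FPKM, SD, n = 2), with a log2 ratio of -2.86 (SE 0.13, adjusted p = 9.62e-05), and 4.74% of all genes tested had a larger one in size. Set against the catalytic subunits, Rcan1 amounted to 2.18% and 3.11% of their summed FPKM in CNS and to 73.2% and 108% in dLN.

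Rcan1 has 2 transcripts whose starts are 66091 bases apart. As background, the downstream start gives the form Rcan1-4, which calcineurin and NFAT induce, and the upstream start gives Rcan1-1. The stretches of 250 bases before both starts are shown because the groups differed in which start was used. They are from RefSeq (GRCm38.p6), are written 5′ to 3′ along the minus strand up to the base before the start, and have in capitals the NFAT core GGAAA or its reverse complement TTTCC. The downstream stretch is chr16:92400079-92400328 and the upstream one is chr16:92466170-92466419.
Rcan1 downstream start: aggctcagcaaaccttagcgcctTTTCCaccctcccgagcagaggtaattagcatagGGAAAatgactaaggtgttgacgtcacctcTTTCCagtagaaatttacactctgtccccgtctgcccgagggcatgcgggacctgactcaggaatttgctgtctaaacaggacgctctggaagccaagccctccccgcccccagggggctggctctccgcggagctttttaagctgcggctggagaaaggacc
Rcan1 upstream start: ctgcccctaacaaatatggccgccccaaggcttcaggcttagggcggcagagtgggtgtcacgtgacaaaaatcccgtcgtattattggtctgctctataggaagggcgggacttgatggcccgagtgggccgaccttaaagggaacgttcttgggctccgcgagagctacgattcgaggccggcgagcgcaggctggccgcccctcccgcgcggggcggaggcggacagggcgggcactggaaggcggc
The downstream stretch held 3 matches to GGAAA on either strand, with first bases 227, 193 and 163 bases before the start, and the upstream stretch held 0. Of 32851 promoters of the same length, 55.6% had at least 1 match and 6.39% had at least 3. The downstream stretch also held 1 AP-1 motif (TGANTCA, either strand, found as TGACTCA 110 bases before the start), as did 6.75% of promoters, and 1 CRE (TGACGTCA, 175 bases before the start), as did 1.55%. None of these matches overlapped each other. A match is a description of the letters and not a site that was measured. The table held promoters of 6 of the 9 genes. GGAAA had 3 matches before the upstream start of Nfatc2 and 1 before the downstream one, 3 for Ppp3cb, 2 for Nfat5, 1 and 0 before the starts of Nfatc3, and 0 for Cabin1.

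The transcript from the downstream start with the 3 GGAAA matches (NM_019466) was at 0.118 and 1.49 FPKM in CNS and 20.3 and 24.7 FPKM in dLN. That is about 5 and 64 fragments in CNS against 753 and 1090 in dLN. Its log2 ratio was -3.81 (SE 0.41, adjusted p = 0.00169). The transcript from the upstream start without a match (NM_001081549) was at 2.44 and 1.49 FPKM in CNS and 3.75 and 3.82 FPKM in dLN, a log2 ratio of -0.71 (SE 0.20, adjusted p = 0.0324). The call of the upstream transcript was lost in 5 alternatives, among them those without CNS replicate 2 (-0.48, adjusted p = 0.078), dLN replicate 1 (-0.72, adjusted p = 0.137) or dLN replicate 2 (-0.7, adjusted p = 0.15). The downstream start supplied 84.4% and 86.6% of Rcan1 in dLN, but 4.62% in CNS replicate 1, while in CNS replicate 2 both starts gave 1.49 FPKM. The CNS replicates thus differed from each other, and both lay below dLN. CNS replicate 2 was also the library with a myeloid marker sum of 226 FPKM, and the part of that in this difference was not tested. The difference in use of the upstream start was 3.10 (SE 0.60, adjusted p = 0.037) and missed the threshold without dLN replicate 1 (3.22, adjusted p = 0.139) or dLN replicate 2 (2.98, adjusted p = 0.176). With a pseudocount of 0.1 it was 4.3 (adjusted p = 0.144). In the GENCODE models 316 exonic bases belonged only to the upstream start and 182 only to the downstream start.

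Cabin1, at chr10:75646110-75764357, encodes a nuclear protein that binds and inhibits calcineurin and MEF2 and is also part of a histone chaperone complex. It was at 11.8 and 13.6 FPKM in CNS and 20.1 and 23.1 FPKM in dLN. The mean was 1.7 times as high in dLN (21.6 ± 2.11 against 12.7 ± 1.32 FPKM, SD, n = 2), with a log2 ratio of -0.72 (SE 0.12, adjusted p = 0.00408). It was the smallest difference of the 9 genes, and 54.0% of all genes tested had a larger one in size.

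The order of levels differed between the tissues. In CNS, Ppp3cc was the highest of the 9, followed by Nfatc3, and then by Nfatc1, Ppp3cb and Nfatc2. Nfatc1 overlapped Ppp3cb between the CNS libraries and Ppp3cb overlapped Nfatc2. Ppp3ca, Cabin1, Nfat5 and Rcan1 followed in that order with no overlap between neighbours. In dLN, Nfatc1 was the highest, followed by Nfat5, Rcan1 and Cabin1, so that 3 of the 4 genes at the bottom in CNS stood just below the top in dLN. Nfatc3 and Ppp3cb overlapped each other, as did Ppp3cc and Nfatc2, and Ppp3ca was the lowest.

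The genes whose values followed a member most closely were named by the root mean square difference of their centred log2 values over the 4 libraries. With only 4 libraries, this measure mainly finds genes with a like ratio between the tissues. Shared control was not tested. For Nfatc1 the nearest were Sytl3 (0.009), Smarcd1 (0.023) and Airn (0.023, at 0.186 to 1.41 FPKM). For Nfatc2 they were Sept9 (0.036), Dok2 (0.047) and Mical1 (0.048), and for Rcan1 they were Bach2 (0.025), Cluh (0.028) and Foxp1 (0.039). Bach2 and Foxp1 encode transcription repressors. Bach2 was at 0.786 and 0.96 FPKM in CNS and 11.1 and 13.2 FPKM in dLN. Cluh was at 8.76 and 9.77 FPKM in CNS and 68.5 and 76.7 FPKM in dLN, and Foxp1 at 5.6 and 6.77 FPKM against 46.0 and 52.5 FPKM.

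The genes around calcineurin are given as lists, to be read against the 74.9% of all genes called. In the calcium entry list, 15 of the 19 genes tested were called, 10 higher and 5 lower in CNS (median log2 ratio 0.43). Atp2a3 and Atp2a2 encode pumps that return calcium to the endoplasmic reticulum. Atp2a3 was at 90.7 and 91.2 FPKM in CNS and 12.7 and 10.5 FPKM in dLN (log2 ratio 2.88, adjusted p = 9e-05). Atp2a2 went the other way, at 46.2 and 51.4 FPKM in CNS and 186 and 177 FPKM in dLN (log2 ratio -1.88, adjusted p = 0.000114). Plcg1 (log2 ratio 1.95, adjusted p = 0.000124) encodes the phospholipase that makes the calcium-releasing messenger IP3. Stim1, a sensor of stored calcium, was at 30.0 FPKM in each CNS library and 13.7 and 12.7 FPKM in dLN (log2 ratio 1.13, adjusted p = 0.000334). Orai1, the pore of the calcium channel that Stim1 opens, was at 21.0 and 29.6 FPKM in CNS and 101 and 124 FPKM in dLN (log2 ratio -2.12, adjusted p = 0.000564), while Orai2 was higher in CNS (log2 ratio 1.89, adjusted p = 0.000297). Stim1 and Orai1 thus moved in opposite directions. Stim2, another sensor, was lower in CNS (9.4 and 9.91 against 12.4 and 13.6 FPKM, log2 ratio -0.39, adjusted p = 0.0161). Stim2 is named here after its values were seen. Kcna3, a potassium channel that sustains calcium entry, was lower in CNS (9.05 and 10.4 against 54.8 and 59.1 FPKM, log2 ratio -2.43, adjusted p = 9.49e-05).

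Of 10 calcineurin partners, 7 were tested, 4 were higher and 2 were lower in CNS (median log2 ratio 0.45). Tbc1d10c encodes carabin, an inhibitor of calcineurin, and it went opposite to Rcan1, at 112 and 117 FPKM in CNS and 11.9 and 8.86 FPKM in dLN (log2 ratio 3.36, adjusted p = 9.7e-05). Chp1, a calcineurin B homologue, was also higher in CNS (71.4 and 64.7 against 20.4 and 17.8 FPKM, log2 ratio 1.78, adjusted p = 0.000185). Rcan3, a relative of Rcan1, was at 8.67 FPKM in each CNS library and 5.29 and 3.95 FPKM in dLN (log2 ratio 0.79, adjusted p = 0.00541), a call that was lost without CNS replicate 1 (adjusted p = 0.0568) or CNS replicate 2 (adjusted p = 0.0573). Rcan2 was at 0.472 FPKM or less and was not tested. Among the genes of inhibitors of calcineurin, Rcan1 and Cabin1 were therefore lower and Tbc1d10c and Rcan3 higher in CNS. Fkbp1a encodes the receptor of the calcineurin-blocking drug FK506 and was at 117 and 114 FPKM in CNS and 214 and 217 FPKM in dLN (log2 ratio -0.89, adjusted p = 0.000388). Homer3, which competes with calcineurin for NFAT, was lower in CNS as well (log2 ratio -0.77, adjusted p = 0.00371).

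Of 11 tested genes for NFAT kinases, nuclear export and other regulators, 2 were higher, 3 were lower and 6 did not pass (median log2 ratio -0.12), the smallest share called of the 6 lists at 45.5%. Gsk3b, a kinase that returns phosphates to NFAT, was at 11.1 and 10.7 FPKM in CNS and 6.22 and 5.51 FPKM in dLN (log2 ratio 0.80, adjusted p = 0.00158). Dyrk1b was higher in CNS too (log2 ratio 1.16, adjusted p = 0.0027), and the log2 ratio of Dyrk1a was 0.24 (adjusted p = 0.0611). Dyrk1a passed with the same upper quartile (0.37, adjusted p = 0.0146) and with its highest transcript (0.48, adjusted p = 0.016). The casein kinase genes Csnk1d (log2 ratio -0.85, adjusted p = 0.000642) and Csnk1e (-0.33, adjusted p = 0.025) were lower in CNS, but the call of Csnk1e was lost without any one library (CNS or dLN, adjusted p = 0.0535 to 0.133) and with the same upper quartile (-0.2, adjusted p = 0.103). Lrrk2 was at 0.0711 and 0.39 FPKM in CNS and 2.53 and 2.5 FPKM in dLN (log2 ratio -1.53, adjusted p = 0.00127). Xpo1, the exporter that carries NFAT out of the nucleus, had a log2 ratio of -0.15 (adjusted p = 0.371), which was 0.01 without CNS replicate 2.

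Of 22 genes known as NFAT targets in T cells, 17 were lower, 1 was higher and 4 did not pass, and the median log2 ratio was -1.56. Their summed FPKM was 1570 and 2240 in CNS and 10464 and 11556 in dLN. Il2, the textbook target, was at 18.2 and 38.8 FPKM in CNS and 5363 and 6176 FPKM in dLN (log2 ratio -7.70, adjusted p = 0.000101), and it alone made up most of the dLN sum. Il3 was at 5.47 and 7.46 FPKM in CNS and 344 and 309 FPKM in dLN (log2 ratio -5.46, adjusted p = 8.12e-05). Il4 was listed at 0 and 0.225 FPKM in CNS and at 266 and 273 FPKM in dLN. Ifng was the gene that rose, at 469 and 693 FPKM in CNS and 324 and 138 FPKM in dLN (log2 ratio 1.43, adjusted p = 0.0343). The call of Ifng was lost without CNS replicate 1 (1.71, adjusted p = 0.116), CNS replicate 2 (1.15, adjusted p = 0.218) or dLN replicate 2 (0.81, adjusted p = 0.0686). Several of these are also genes of particular helper cell types, and their difference is not a measure of NFAT activity. The methods and the labels differ on PMA and ionomycin, and whether both groups were treated alike was not tested. The 4 genes that did not pass were Csf2 (log2 ratio 0.03, adjusted p = 0.967), Fasl (-0.36, adjusted p = 0.0629), Lag3 (0.52, adjusted p = 0.412) and Rnf128 (-0.02, adjusted p = 0.898), which are named here after their values were seen.

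Among 5 tested NFAT5 targets, genes of the salt response, 2 were higher and 3 were lower in CNS. Slc5a3, which encodes a carrier of the osmolyte myo-inositol, was at 1.25 and 1.84 FPKM in CNS and 11.8 and 13.0 FPKM in dLN (log2 ratio -2.41, adjusted p = 0.000195). The amino acid carrier Slc38a2 (log2 ratio -0.65, adjusted p = 0.00383) and the taurine carrier Slc6a6 (-0.48, adjusted p = 0.0151) were lower too. Sgk1, a salt-sensing kinase (log2 ratio 1.61, adjusted p = 0.00125), and Akr1b3, aldose reductase (1.09, adjusted p = 0.0122), were higher in CNS. The 3 carriers thus moved the same way as Nfat5 and the 2 enzymes the opposite way. Without dLN replicate 2 the count of called genes in this list was 3 in place of 5, as Slc6a6 (-0.47, adjusted p = 0.0782) and Akr1b3 (0.85, adjusted p = 0.06) missed the threshold. Slc6a6 also missed it without dLN replicate 1 (-0.5, adjusted p = 0.0648) and Akr1b3 without CNS replicate 2 (0.82, adjusted p = 0.0814).

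The last list holds Cabin1 partners, other calcineurin substrates and histone deacetylases that bind MEF2. Of its 13 tested genes, 4 were higher and 7 were lower in CNS (median log2 ratio -0.53). Tfeb, a lysosome factor that calcineurin releases to the nucleus, was at 9.76 and 12.8 FPKM in CNS and 1.41 and 1.03 FPKM in dLN (log2 ratio 2.46, adjusted p = 0.000259). Crtc3, a CREB coactivator, was also higher in CNS (log2 ratio 0.73, adjusted p = 0.00455). The histone deacetylases that bind MEF2 were split, with Hdac5 higher (log2 ratio 1.76, adjusted p = 0.000559) and Hdac4 (-0.91, adjusted p = 0.0103) and Hdac7 (-0.90, adjusted p = 0.00159) lower in CNS. Without dLN replicate 2 Hdac4 missed the threshold (-0.82, adjusted p = 0.0631). Asf1a, a histone chaperone of the complex that holds Cabin1, was lower like Cabin1, at 7.84 and 7.86 FPKM in CNS and 17.0 and 15.9 FPKM in dLN (log2 ratio -0.98, adjusted p = 0.000537).

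**Figure D5:**
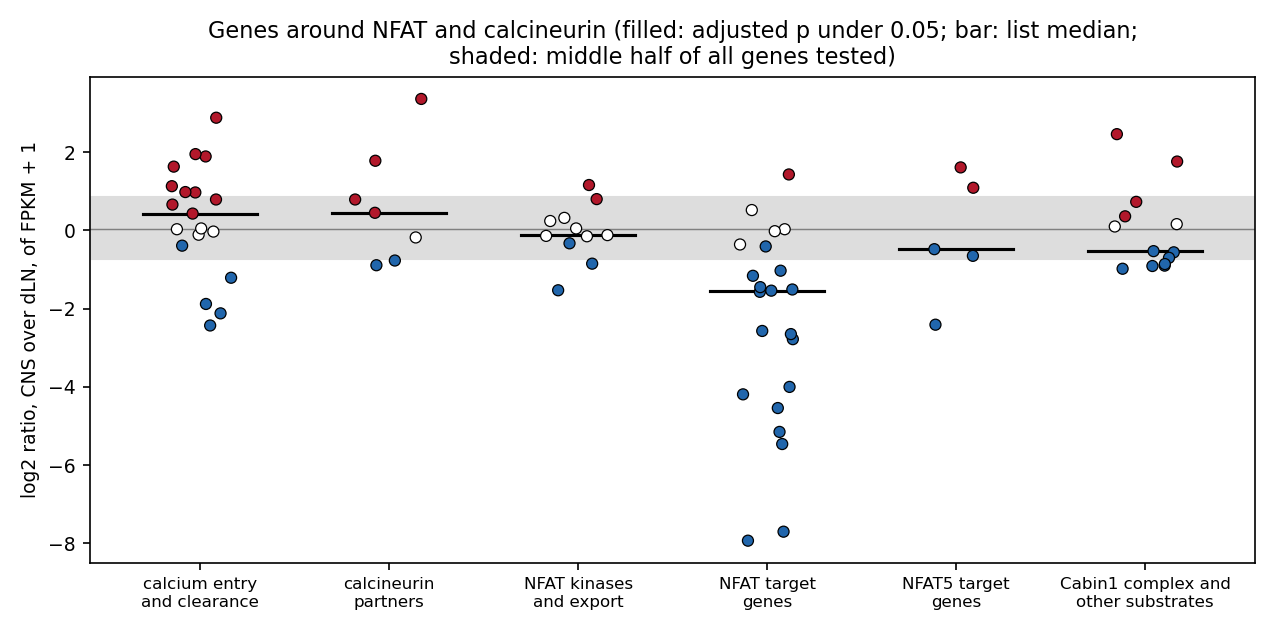
Log2 ratio of CNS over dLN on the log2(FPKM + 1) scale for the tested genes of the 6 lists, 1 point per gene (filled where the adjusted p was under 0.05), with a bar at the median of each list and the range between the quartiles of all genes tested shaded. The median of the NFAT targets is -1.56, and those of the other 5 lists lie between -0.53 and 0.45.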

How the data were processed

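RNA of CD44+CD4 cells was sequenced in 2 CNS and 2 dLN libraries. After trimming and mapping, the authors computed and deposited FPKM of 33819 RefSeq transcripts (mm10), 1 table per tissue. The aligner and the program that computed FPKM are not given in the sources used here. The CNS header holds both library names in 1 cell, and the columns were matched to them by order. The tables were joined by transcript, and FPKM was summed by symbol (23990 symbols), leaving out 565 transcripts without one (0.142% to 0.446% of the FPKM). FPKM times length summed to 0.932 M to 0.968 M per library, so each was scaled to its own total.

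The 10634 genes that reached a mean of 1 FPKM in a tissue were fitted with limma 3.58.1 (R 4.3.3; lmFit, eBayes with trend). The response was log2(FPKM + 1), tissue was the one term, and p-values were adjusted after Benjamini and Hochberg (0.05). This scale understates changes of low genes. Transcripts (13565) and start use (680 genes) were fitted likewise. Python 3.11.15 and matplotlib 3.10.9 did the rest. On simulated data of 10634 genes, of which 200 were changed, limma recovered 87 of 100 genes changed by 2 on the log2 scale. It recovered 64 of 100 changed by 1, with 8 false calls. The simulation shuffled the spreads over genes, and in the data 74.9% of genes were called, so these rates do not carry over. The depth estimate had an error of 0.0% on counts simulated with the formula that it inverts, which tests the code only. Whether the replicates came from separate mice is not given in the labels, so p-values measure the spread between these libraries, which may be technical. Exact intervals were not computed, since fragment counts were estimated.

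The members and lists were chosen with earlier results of these data known, and start use was added after the transcripts were seen. The text names the 9 genes, their transcripts with a mean of at least 1 FPKM, up to 3 called genes per list and direction with the largest non-overlapping ratios, core genes of the pathway and the 3 nearest genes of Nfatc1, Nfatc2 and Rcan1. A core gene is not reported here. Promoters came from RefSeq and unique exonic bases from GENCODE M21. Alternatives covered the pseudocount, 3 scalings, 2 filters, eBayes without trend, the highest transcript, a minimum ratio, a replicate block and each library left out.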

Additional observations from a re-analysis of the deposited data

How the results depend on the processing

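The 9 genes kept direction and call in all 117 comparisons with an alternative other than the minimum ratio. With a minimum log2 ratio of 1 in size, Nfatc1 (-0.82) and Cabin1 (-0.72) dropped out. Of 270 comparisons of their transcripts 239 did so, 26 lost the call, 2 gained it and 3 turned. The turned values were those of the Nfatc2 transcripts NM_001291171 (-0.28 with a pseudocount of 0.1, and -0.78 to 1.61 with a library left out) and NM_001291173 (-0.28 to 2.10 with a library left out), none of them called with all libraries. Of 467 comparisons of list genes 443 kept direction and call, 21 lost it, 2 gained it and Xpo1 turned (-0.31 to 0.01 with a library left out). With ratios under 1 (log2) left out, 4168 of the 7968 genes called remained, since the criterion removes small differences. So did 9 genes of calcium entry, 2 calcineurin partners, 2 NFAT kinases and export genes and 3 NFAT5 targets. From the list with Cabin1 partners, other substrates and deacetylases, 2 genes remained. Without dLN replicate 2 the NFAT5 list had 3 calls. With a library left out, start use ranged from -3.95 to -2.99 for Nfatc1, 2.29 to 3.91 for Rcan1 and -2.9 to 0.71 for Nfatc2. Without either dLN library the call was lost for Nfatc1 (-3.42 and -3.52) and Rcan1 (3.22 and 2.98). For Rcan1 it was also lost with a pseudocount of 0.1 (4.3) and with no filter on low values (3.1). The cause was not tested. With the highest transcript, the share differences were 5.53 points for Nfatc2 and 34.3 for Nfatc3.

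Scaling to the same sum moved the median log2 ratio of all genes from 0.05 to -0.13 and the same upper quartile moved it to 0.16, with 43.1% and 55.6% of calls higher in CNS against 50.4%. Replicate differences correlated at 0.0933 between the tissues. A low correlation cannot show that equal replicate numbers share only a name. By Ddx3y and Xist the tissues came from different mice, so these numbers do not pair mice. A replicate block gave 7828 genes called, with log2 ratios of -0.82 for Nfatc1, 1.72 for Nfatc2 and -2.86 for Rcan1, and start use of -3.47 for Nfatc1 and 3.1 for Rcan1, and it changed no call of the 9 genes, their transcripts or the lists. About 5 fragments lie behind the downstream Rcan1 transcript in CNS replicate 1.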
